A study of Arabidopsis thaliana with 8 samples.

Results

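UDP-glycosyltransferases (UGTs) and glutathione transferases (GSTs) are the 2 large conjugating enzyme families of plants, and 58 of their genes could be followed here among 13356 genes with a probe set of their own. The members were chosen by symbol in the probe annotation of the array, and comprise 45 UGT genes (UGT76C1 and UGT76C2 left out) and 13 GST genes. The 58 genes fall into 14 groups by subfamily number, and each gene has 1 probe set. The rule uses symbols and no measured value, but it was set with earlier results of these data known. The UGTs are UGT71 (9 genes), UGT72 (4), UGT73 (7), UGT74 (3), UGT76 (6), UGT78 (3), UGT84 (5) and UGT85 (5), with 1 gene each of UGT80, UGT87 and UGT88. The GSTs are 11 of the plant-specific tau class (GSTU), GSTF4 of the phi class and GSTL3 of the lambda class, and no theta (GSTT) or zeta (GSTZ) gene met the rule. A further 3 probe sets that read several genes at once, UGT or GST genes among them, were not used.

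A UGT moves a sugar from a UDP-sugar onto a small molecule, which can be a hormone, a flavonoid, a monolignol or a foreign compound, and so changes its activity, solubility or storage. A GST joins the tripeptide glutathione to electrophilic molecules, and tau and phi class genes are known in Arabidopsis for rapid induction by herbicides, oxidative stress and defence signals. Cytokinins are substrates of UGTs: UGT76C1 and UGT76C2 glucosylate ring nitrogens, whereas UGT85A1, UGT73C1 and UGT73C5 form O-glucosides of zeatin-type cytokinins in vitro. Of the last 3, UGT73C1 was measured.

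The study used 14-day-old Arabidopsis thaliana seedlings, either wild type or arr1,10,12, a mutant in 3 type-B response regulators, which switch on genes when cytokinin is perceived. The seedlings then spent 1 h in liquid medium to which 10 µM benzyladenine (BA, a cytokinin) or the vehicle DMSO had been added,, so every group, controls included, was moved to liquid, and the treatment protocol says that roots were cut off although the tissue label reads seedling. Each of the 4 groups has 2 single-colour Affymetrix arrays, and no label says that the 2 came from separate cultures, so p-values reflect the spread between these samples alone, which may be technical. The deposited values are ratios: 70.1% of probe sets have a median within 0.005 of 1 over the 8 arrays, and the dimmer rest are apparently relative to a common floor, so a gene's relative value is compared between arrays and never with that of another gene. In bulk tissue, fewer cells of a type and less RNA per cell cannot be told apart.

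The array mutant DMSO replicate 1 stood apart before any member was considered. Its median log2 5′ to 3′ quotient over 6 pairs of actin, GAPDH and ubiquitin control probe sets was -1.51, against -0.01 to 0.15 on the other 7 arrays, its 25S ribosomal RNA control was at 197 against 0.666 to 3.48, and its file name carries a prefix of its own. It differed over 2-fold from its group mate in 17.9% of all probe sets, where the other groups had 0.747 to 3.34%. Counts are therefore given for all 8 arrays and for the 7 without it, in which the DMSO-treated mutant is represented by replicate 2, whose spread is taken to equal that of the remaining groups. Fold changes in wild type and under BA are the same in both fits, and log2 changes stand with their standard errors (SE) from the 7-array fit. A result is said to pass at an adjusted p under 0.05 by limma (Benjamini-Hochberg over 22746 probe sets). No member passed with 8 arrays in any of the 5 comparisons, so every call of a member below is from 7 arrays unless another fit is named.

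BA raised 6 of the 58 genes in wild type within 1 h and lowered none, in the 7-array fit. They were UGT76E12, GSTU26, UGT76E11, UGT84A4, UGT73B5 and UGT73B4, between 2.05-fold and 5.41-fold higher. The 6 are 10.3% of the members, and 0.844% of all probe sets tested passed as higher (2.27% in either direction). In the opposite direction 0 members passed, against 1.42% of all probe sets. With 8 arrays 0 members passed, and 0.022% of all probe sets passed, 0.0132% as higher. An unadjusted limma p under 0.05 was found with 8 arrays for 9 of the 58 members, against 1646 of all 22746 probe sets. A fit of the 4 wild-type arrays, all of 1 file-name prefix, gave 7 members. Of these 6 were higher, against 1.81% of all probe sets, and 1 lower, against 2.41% (4.22% in either direction).

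UGT76E12 (AT3G46660) had the largest BA change among the members. In wild type it was measured at 0.789 and 0.729 with DMSO, and BA took it to 3.93 and 4.28. The BA arrays lay far above the DMSO arrays, and the 2 arrays of each group lay close together. The log2 change was 2.44 ± 0.36, a 5.41-fold rise (limma adjusted p = 0.0273 with 7 arrays and 0.155 with 8). UGT76E11 (AT3G46670), a flavonoid glucosyltransferase that lies beside it, was at 1.03 and 0.974 with DMSO and at 3.09 and 3.04 with BA. It too had no overlap between the groups, and it rose 3.07-fold (1.62 ± 0.27, limma adjusted p = 0.0387 with 7 arrays and 0.762 with 8). The RefSeq table of assembly TAIR10.1 places 1 protein-coding gene between the pair and lists a noncoding gene overlapping each (AT3G46658 and AT3G46668). Whether these probe sets also read the noncoding transcripts was not tested.

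GSTU26 (AT1G17190), a tau class GST, was the member closest to passing with all 8 arrays. It was at 0.897 and 1.15 with DMSO and at 4.57 and 5.91 with BA in wild type, without overlap. The change was 2.36 ± 0.29, or 5.13-fold (limma adjusted p = 0.0173 with 7 arrays and 0.123 with 8). Its chromosomal neighbour GSTU25, known for conjugating the explosive TNT, was at 0.828 and 1.17 with DMSO and at 1.64 and 1.84 with BA. That difference of 0.82 ± 0.66 did not pass, and the BA-treated mutant arrays of this gene, at 1.19 and 0.235, were among the most discordant pairs.

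UGT73B5 and UGT73B4, neighbours on chromosome 2 whose RefSeq spans overlap, differ in what they are known for: UGT73B5 takes part in the redox response to pathogens, and UGT73B4 glucosylates TNT breakdown products. UGT73B5 was at 0.883 and 1.12 with DMSO and at 2.51 and 2.18 with BA in wild type. UGT73B4 was at 1.01 and 0.991 with DMSO and at 1.99 and 2.12 with BA. In both genes the BA arrays stood about equally high and clear of the DMSO arrays. UGT73B5 rose 2.35-fold (1.24 ± 0.17, limma adjusted p = 0.0216 with 7 arrays and 0.907 with 8) and UGT73B4 2.05-fold (1.04 ± 0.13, limma adjusted p = 0.0194 with 7 arrays and 0.907 with 8). Whether each probe set is specific to its own transcript was not tested.

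UGT84A4, of the subgroup that makes glucose esters of hydroxycinnamic acids, was at 0.900 and 0.987 with DMSO and at 1.81 and 2.93 with BA. The BA arrays were above both DMSO arrays but differed from each other more than those of the other raised genes. It rose 2.45-fold (1.29 ± 0.23, limma adjusted p = 0.0447 with 7 arrays and 0.545 with 8). The 7-array count of 6 fell to 1 without wild-type BA replicate 1 and to 0 without wild-type BA replicate 2 or either wild-type DMSO array. It was 7, 6 higher and 1 lower, without either BA-treated mutant array.

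**Figure D1:**
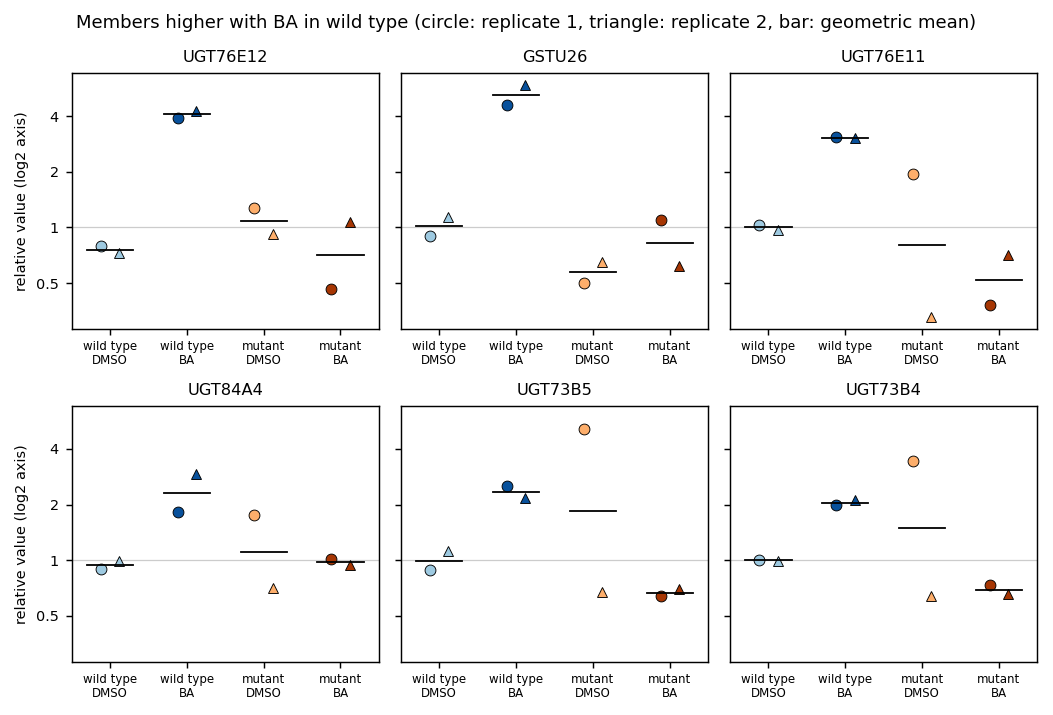
Relative values (log2 axis) of the 6 members that passed as higher with BA in wild type, on each of the 8 arrays, with circles for replicate 1, triangles for replicate 2 and a bar at the geometric mean of each group. In every panel both wild-type BA arrays lie above both wild-type DMSO arrays, and for UGT73B5 and UGT73B4 mutant DMSO replicate 1 is the highest of the 8 arrays.

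The other 5 UGT73 genes did not pass. UGT73C1, the cytokinin O-glucosyltransferase, was at 0.873 and 1.13 with DMSO and at 1.67 and 3.18 with BA. Its wild-type groups did not overlap, and its difference of 1.22 ± 0.32 (2.32-fold) missed the threshold (limma adjusted p = 0.118 with 7 arrays and 0.900 with 8). UGT73B1 was at 0.738 and 1.26 with DMSO and at 1.98 and 2.102 with BA, a difference of 1.08 ± 0.27 (limma adjusted p = 0.114, 7 arrays). The remaining UGT73C2, UGT73D1 and UGT73C7 differed by 0.09, 0.15 and -0.10. The median BA change of the 7 UGT73 genes was 1.04, against -0.04 over all probe sets and 0.05 over the 58 members.

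Among phenylpropanoid enzymes the members went both ways in wild type. UGT72E3 and UGT72E2, which glucosylate the monolignols sinapyl and coniferyl alcohol, differed by 0.90 ± 0.22 and 0.82 ± 0.24 (limma adjusted p = 0.0983 and 0.156, 7 arrays). UGT72B3 differed by -0.93 ± 0.22 (limma adjusted p = 0.0931, 7 arrays), and UGT72E1, which acts on coniferyl aldehyde, by -0.18 ± 0.15. All 4 UGT72 members had wild-type groups that did not overlap, 2 above and 2 below. Of all probe sets, 20.6% were above and 29.2% below without overlap. All 5 UGT84 genes had a positive BA difference in wild type, from 0.04 for UGT84B2 to the passing 1.29 of UGT84A4. UGT84A1 and UGT84A3, the other hydroxycinnamate enzymes of the same chromosomal run of 3 genes, differed by 0.66 and 0.41, and UGT84B1, an enzyme of indole-3-acetic acid, by 0.05.

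The member nearest to passing as lower was UGT74D1, which glucosylates auxins. In wild type it stood at 1.14 and 1.58 with DMSO but at 0.590 and 0.659 with BA, without overlap. The difference of -1.11 ± 0.21 (2.15-fold lower) had a limma adjusted p of 0.0562 with 7 arrays and 0.428 with 8, and it was the 1 lower member that passed with the wild-type arrays alone. In the same subfamily, UGT74F1, a salicylate glucosyltransferase, differed by 0.30 ± 0.14, and UGT74B1, an enzyme of glucosinolate synthesis, by 0.24 ± 0.19. UGT76B1, known for conjugating isoleucic acid and salicylate, differed by -0.65 ± 0.21, on the other side from its subfamily mates UGT76E11 and UGT76E12. Of its other mates, UGT76E2 and UGT76E1 differed by -0.33 and -0.05, and UGT76D1 by 0.34.

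The rest of the tau class mostly differed downward or little. GSTU18 had the lowest BA value of the class at -0.69 ± 0.18 (limma adjusted p = 0.125, 7 arrays), and GSTU16 and GSTU27 differed by -0.66 and -0.57. The run GSTU23, GSTU22, GSTU21 and GSTU20 on chromosome 1 differed by -0.19 to 0.01, whereas GSTU25 and GSTU26, adjacent elsewhere on that chromosome, differed by 0.82 and 2.36. Of the 13 GST genes, 5 had a positive BA difference in wild type and the median was -0.11, against a median of 0.09 in the 45 UGT genes.

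The UGT71, UGT78 and UGT85 genes held 0 that passed under BA in wild type, where 2.27% of all probe sets passed, so 0 is near that share. The UGT71 genes ranged from -0.46 (UGT71C3, which can glucosylate methyl salicylate) to 0.55 (UGT71B1), and UGT71B6 and UGT71C5, enzymes that glucosylate abscisic acid, were at 0.16 and -0.22. The flavonol glycosyltransferases UGT78D1, UGT78D2 and UGT78D3 differed by -0.07, -0.27 and -0.07. The UGT85 genes ranged from -0.23 (UGT85A4) to 0.55 (UGT85A2). Counted by arrays alone, 19 of the 58 members (32.8%) had both wild-type BA arrays above both DMSO arrays, against 20.6% of all probe sets, and 17 (29.3%) had both below, against 29.2%.

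Chromosomal neighbours did not all pass together. By gene order in the RefSeq table, 34 of the 58 members lie in 14 runs with at most 1 other protein-coding gene between them. The pairs UGT76E12 with UGT76E11 and UGT73B5 with UGT73B4 held only genes that passed as higher with BA in wild type. In the runs of GSTU26 with GSTU25 and of UGT84A4 with UGT84A1 and UGT84A3, 1 gene passed. The remaining 10 runs, among them the 4 UGT85A and the 4 GSTU genes, held 0 that passed. Of all probe sets, 0.844% passed as higher and 1.42% as lower, so 0 in a short run is near that share.

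**Figure D2:**
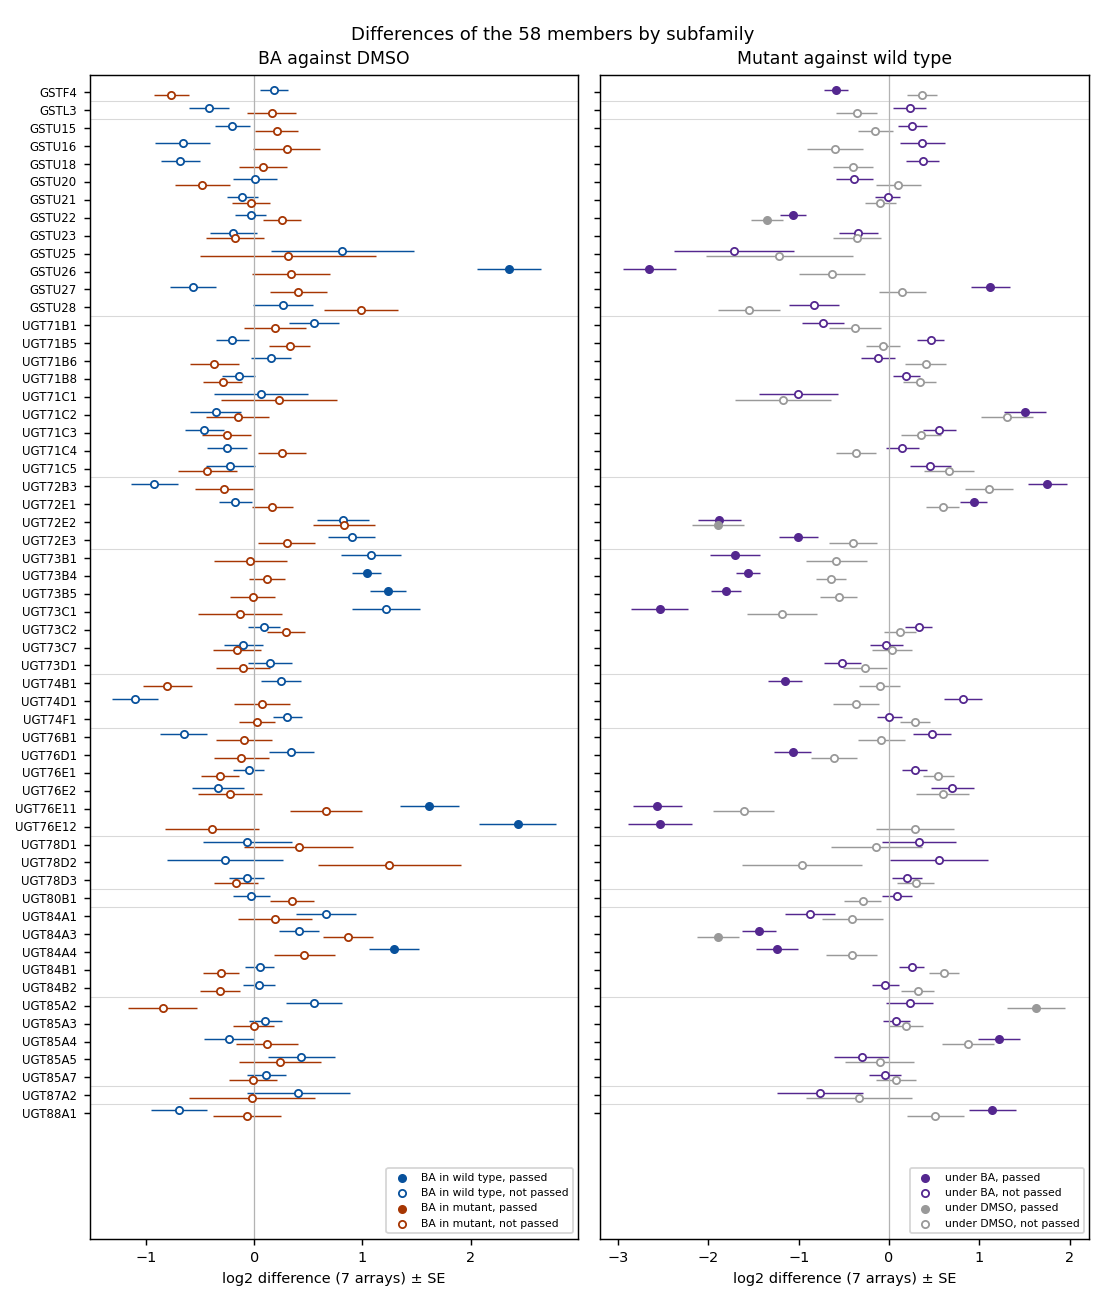
Log2 differences with their SE from the 7-array fit for each of the 58 members, grouped by subfamily, with BA against DMSO in each genotype on the left and mutant against wild type under each treatment on the right (filled, adjusted p under 0.05). The 6 filled points for BA in wild type all lie above 0, 0 points for BA in the mutant are filled, and under BA 15 filled points lie below 0 and 6 above.

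In the mutant, BA raised or lowered 0 members in either fit, against 0.0352% of all probe sets with 7 arrays and 0 of 22746 with 8. At an unadjusted limma p under 0.05, 3 of the 58 members were found with 8 arrays, against 1215 of 22746 probe sets. By arrays alone, with both DMSO arrays used, 1 member (1.72%) had both BA-treated mutant arrays above, against 14.1% of all probe sets. Both lay below for 10 members (17.2%), against 15.1%. The 6 genes raised in wild type had mutant BA differences of -0.39 (UGT76E12), 0.34 (GSTU26), 0.66 (UGT76E11), 0.46 (UGT84A4), -0.02 (UGT73B5) and 0.12 (UGT73B4), with SEs of 0.16 to 0.44. The BA-treated mutant arrays of UGT76E12 were at 0.463 and 1.08, either side of the DMSO array of 0.925 used in that fit. Those of GSTU26 were at 1.103 and 0.617, against 0.654. For UGT76E11, UGT84A4 and UGT73B4 both BA-treated mutant arrays lay above that DMSO array, by differences that did not pass.

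The 5 members with the lowest p in the mutant were different genes. GSTF4, a phi class GST, was at 1.28 on mutant DMSO replicate 2 and at 0.760 and 0.746 with BA, a difference of -0.77 ± 0.16 (limma adjusted p = 0.272, 7 arrays). With mutant DMSO replicate 1, where GSTF4 was at 0.339, the difference turned to 0.19 in the 8-array fit. UGT84A3 differed by 0.86 ± 0.23, GSTU28 by 0.99 ± 0.34 and UGT72E2 by 0.83 ± 0.29, each with its DMSO value on replicate 2 below both BA arrays. With 8 arrays these differences were 0.02, 0.44 and -0.67, the last with its sign turned. UGT74B1 was at 0.930 on that DMSO array and at 0.574 and 0.494 with BA (-0.80 ± 0.23, limma adjusted p = 0.461). On mutant DMSO replicate 1 it was at 1.25, so both DMSO arrays lay above both BA arrays, and the 8-array difference was -1.02. UGT73C1 differed by -0.13 ± 0.39 with 7 arrays.

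Whether the BA response depended on genotype was tested as an interaction, and 0 of the 58 members passed in either fit, against 0.453% of all probe sets with 7 arrays and 0 of 22746 with 8. At an unadjusted limma p under 0.05 there were 7 members with 8 arrays, against 1970 of 22746 probe sets. The mutant response of UGT76E12 was lower than in wild type by a log2 difference of -2.83 ± 0.56, which did not pass (limma adjusted p = 0.110, 7 arrays, and 0.259, 8 arrays). That of GSTU26 differed by -2.02 ± 0.47 (adjusted p = 0.149, 7 arrays), of UGT73B5 by -1.25 ± 0.27, of GSTF4 by -0.95 ± 0.21 and of UGT73B4 by -0.92 ± 0.21, by limma with adjusted p values of 0.129 to 0.149. UGT73C1 differed by -1.35 ± 0.50 (limma adjusted p = 0.366). A BA response that passed in wild type and not in the mutant is therefore not shown to differ between them for these genes. The 7-array count was 3 without either BA-treated mutant array, with UGT76E12 passing each time.

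In the 7-array fit the genotypes are compared under BA with 2 arrays each, and under DMSO with a single mutant array. Counts under BA and under DMSO are therefore not ranked. Under BA 21 members passed with 7 arrays, 15 lower and 6 higher in the mutant. That is 36.2% of the members, against 7.68% of all probe sets (3.56% lower and 4.12% higher). By arrays alone, 22 members (37.9%) had both BA-treated mutant arrays below both of wild type, against 18.4% of all probe sets, and 19 (32.8%) had both above, against 41.1%. With 8 arrays 0 members passed (the limma adjusted p values of the 21 were 0.0550 to 0.653), and 0.141% of all probe sets passed. An unadjusted limma p under 0.05 was found with 8 arrays for 19 of the 58 members, against 3002 of all 22746 probe sets. The median difference over all probe sets was 0.12, and that over the members was -0.02. The wild-type BA arrays also serve in the comparison of BA with DMSO, so the 2 sets of calls are not independent. The 6 BA-raised genes passed as lower here: GSTU26 (-2.66 ± 0.29), UGT76E11 (-2.57 ± 0.27), UGT76E12 (-2.54 ± 0.36), UGT73B5 (-1.81 ± 0.17), UGT73B4 (-1.57 ± 0.13) and UGT84A4 (-1.24 ± 0.23). GSTU26 was the nearest to the threshold with 8 arrays (limma adjusted p = 0.00558 with 7 and 0.0550 with 8).

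UGT73C1 was among the most strongly lower genes under BA. The BA-treated mutant arrays were at 0.451 and 0.349, far below the 1.67 and 3.18 of wild type. The difference was -2.54 ± 0.32, or 5.81-fold (limma adjusted p = 0.00775 with 7 arrays and 0.282 with 8). UGT73B1, at 0.535 and 0.732, was 3.26-fold lower (-1.71 ± 0.27, limma adjusted p = 0.0166, 7 arrays). With UGT73B4 and UGT73B5 this made 4 of the 7 UGT73 genes lower, and UGT73C2, UGT73C7 and UGT73D1 were between -0.52 and 0.33 without passing.

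All 4 UGT72 members passed under BA, in opposite directions. GT72B1, a further UGT72 gene that the symbol rule left out, differed by -0.51 ± 0.22 without passing (limma adjusted p = 0.202, 7 arrays). UGT72E2 was at 0.564 and 0.406 in the BA-treated mutant and at 1.46 and 2.13 in BA-treated wild type, 3.68-fold lower in the mutant (-1.88 ± 0.24, limma adjusted p = 0.00798, 7 arrays). UGT72B3 was at 1.43 and 1.75 in the mutant and at 0.565 and 0.389 in wild type, 3.37-fold higher (1.75 ± 0.22, limma adjusted p = 0.00775). UGT72E1 was at 1.56 and 1.82 against 0.911 and 0.853, 1.91-fold higher (0.93 ± 0.15, limma adjusted p = 0.0172). The monolignol enzymes UGT72E2 and UGT72E3 thus lay below wild type and the aldehyde enzyme UGT72E1 above it, with no overlap in any of these pairs. Of all probe sets, 18.4% lay below and 41.1% above without overlap. UGT72B3 kept its call without any 1 array of the 7, at 1.48 to 2.02.

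**Figure D3:**
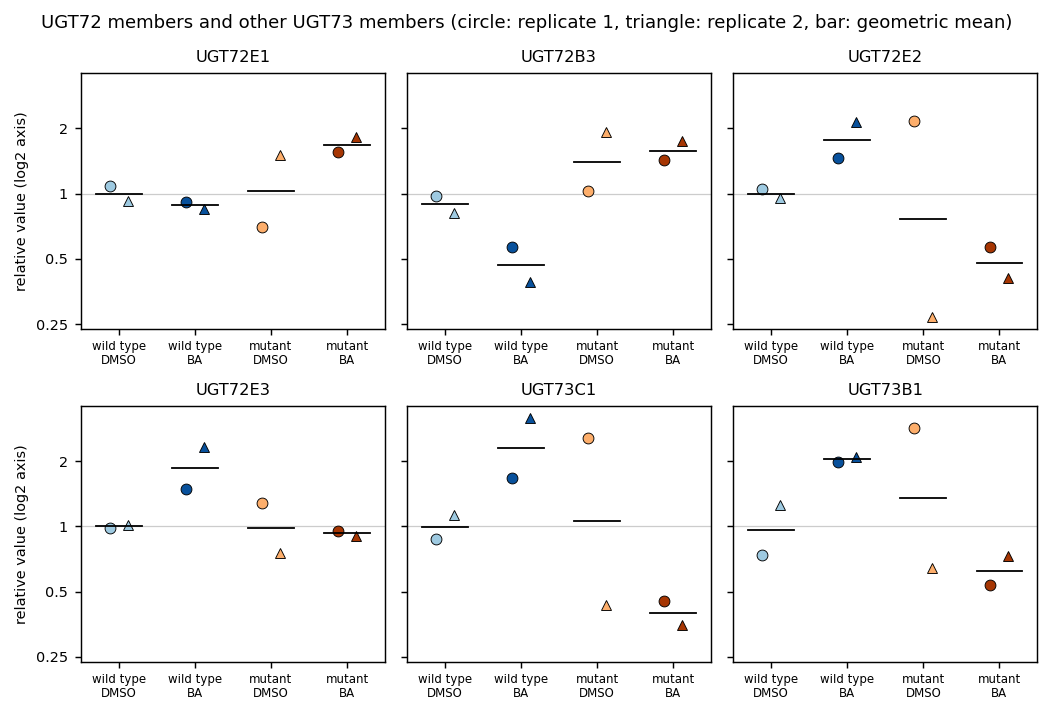
Relative values (log2 axis) of the 4 UGT72 genes, UGT73C1 and UGT73B1 on each of the 8 arrays, with circles for replicate 1, triangles for replicate 2 and a bar at the geometric mean of each group. In the BA-treated groups UGT72E1 and UGT72B3 are higher and the other 4 genes lower in the mutant, with no overlap.

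The lower genes under BA also included UGT84A3, UGT74B1 and UGT76D1. UGT84A3 was at 0.475 and 0.628 in the mutant against 1.35 and 1.62 (-1.44 ± 0.19, limma adjusted p = 0.00879, 7 arrays). UGT74B1, the glucosinolate enzyme, was at 0.574 and 0.494 against 1.07 and 1.31 (-1.15 ± 0.19, adjusted p = 0.0167). UGT76D1, which glucosylates dihydroxybenzoic acids, was at 0.579 and 0.654 against 1.104 and 1.51 (-1.07 ± 0.21, adjusted p = 0.0294). In each the groups did not overlap, as for 18.4% of all probe sets in this direction. The remaining 3 lower genes, picked after their values were seen because they are few, were GSTU22 (-1.06), UGT72E3 (-1.01) and GSTF4 (-0.59).

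Besides UGT72B3 and UGT72E1, the higher genes under BA were UGT71C2, UGT85A4, UGT88A1 and GSTU27. UGT71C2 was at 1.52 and 2.52 in the mutant and at 0.721 and 0.660 in wild type (1.51 ± 0.24, limma adjusted p = 0.0153, 7 arrays). UGT85A4 was at 1.18 and 1.92 against 0.655 and 0.639 (1.22 ± 0.23, adjusted p = 0.0282). UGT88A1 was at 1.42 and 1.30 against 0.792 and 0.473 (1.15 ± 0.26, adjusted p = 0.0459). GSTU27, the 1 GST that was higher, was at 1.55 and 1.11 against 0.657 and 0.552 (1.12 ± 0.22, adjusted p = 0.0287). None of these pairs of groups overlapped, as for 41.1% of all probe sets in this direction. UGT88A1 passed in 2 of 7 fits that left out an array and in 1 of 9 other settings. The count of 21 was 12 without wild-type BA replicate 1 and 6 without wild-type BA replicate 2.

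Under DMSO 4 members differed between the genotypes with 7 arrays, 3 lower and 1 higher in the mutant, which is 6.9% of the members against 4.22% of all probe sets (1.89% lower and 2.33% higher). By arrays alone, 18 members (31.0%) had both mutant DMSO arrays above both of wild type, against 29.4% of all probe sets, and 8 (13.8%) had both below, against 13.8%. With 8 arrays 0 passed, and 0.00879% of all probe sets passed. An unadjusted limma p under 0.05 was found with 8 arrays for 11 of the 58 members, against 3068 of all 22746 probe sets. UGT72E2 was at 1.05 and 0.950 in wild type and at 0.269 on mutant DMSO replicate 2, but at 2.15 on replicate 1. UGT84A3 was at 1.04 and 1.20 in wild type and at 0.300 and, on replicate 1, 0.965. The 7-array differences were -1.89 ± 0.29 for UGT72E2 and -1.89 ± 0.23 for UGT84A3 (limma adjusted p = 0.0217 and 0.0143). UGT72E2 thus lay below both wild-type arrays on 1 mutant array and above both on the other, while UGT84A3 was below on both.

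GSTU22 was at 1.02 and 1.03 in DMSO-treated wild type, 0.401 on mutant DMSO replicate 2 and 1.39 on replicate 1, on opposite sides of wild type (-1.35 ± 0.18, limma adjusted p = 0.0152, 7 arrays). In the BA-treated mutant it was at 0.524 and 0.438. UGT85A2 was higher in the mutant on both DMSO arrays, at 2.11 on replicate 2 and 1.24 on replicate 1 against 0.709 and 0.656 (1.63 ± 0.32, limma adjusted p = 0.0429). It lost that call with quantile normalisation, an offset of 1 or 32, the replicate block, or without any 1 of the 4 wild-type arrays. UGT73C1 differed by -1.19 ± 0.39 with 7 arrays and by 0.09 with 8. The count of 4 was 0 without either wild-type DMSO array and 10 without either BA-treated mutant array. Using replicate 1 of the DMSO-treated mutant and not replicate 2 gave 17.

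The members differed widely between the 2 DMSO-treated mutant arrays. On these, 20 of the 58 members (34.5%) differed over 2-fold, against 17.9% of all probe sets, 0 between the wild-type DMSO arrays, 1 between the wild-type BA arrays and 6 between the BA-treated mutant arrays. Replicate 1 was the higher array for 42 members, against 12335 of all 22746 probe sets. It was the highest of all 8 arrays for 22 of the 58 members (19 UGT and 3 GST genes), and for 31.1% of all probe sets. UGT72E2 was 8.004-fold higher on replicate 1 than on replicate 2, UGT73B5 7.60-fold, UGT76E11 5.96-fold, UGT73C1 5.91-fold, UGT73B4 5.4-fold, GSTU23 4.72-fold and UGT73B1 4.43-fold. GSTF4 and UGT72E1 were the 2 of the 20 that were lower on replicate 1. The genes with the large gaps thus included 4 of the 6 that BA raised in wild type (UGT84A4 was 2.49-fold higher). The low 5′ to 3′ quotient and the high ribosomal value of replicate 1 move with these values, and their part in them was not tested.

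**Figure D4:**
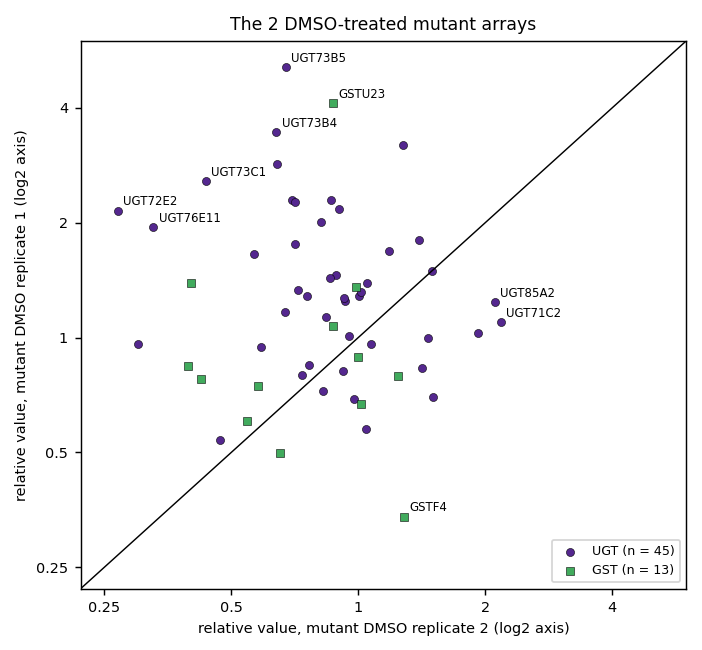
Relative values of the 58 members on the 2 DMSO-treated mutant arrays (both axes log2), with the line of equal values. Of the 58 points 42 lie above the line, that is, higher on replicate 1, with UGT73B5 highest at 5.12 against 0.674.

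Genotype cannot be told apart from a file-name prefix that all 4 wild-type arrays carry and no mutant array does. Root markers also moved with genotype: of 39 fixed root names 3 were measured (EXPA7, EXPA18 and PYK10), and their summed relative value was 3.46 to 5.12 on the wild-type arrays and 1.26 to 2.44 on the mutant arrays. As ratios they do not say how much root RNA was present, and PYK10 passed as lower under BA (-1.1, limma adjusted p = 0.0127, 7 arrays). Leaf markers (3 of 22 names: RCA, LHCB4.1 and LHCB4.2) summed to 1.97 to 2.25 in BA-treated wild type, 3.05 to 3.06 in DMSO-treated wild type 3.17 to 3.25 in the BA-treated mutant and 1.73 to 3.48 in the DMSO-treated mutant. Stomatal lineage genes (3 of 6 names: FMA, SPCH and MUTE) summed to 2.57 to 3.19 over all arrays but did not move alike. FMA was at 1.016 to 1.385 on the wild-type arrays and at 0.662 to 0.984 on the mutant arrays. MUTE was higher in the mutant under DMSO (0.936 and 0.922 against 0.752 and 0.702). SPCH was higher in the mutant under BA (1.114 and 1.245 against 0.988 and 0.937). Under BA, RCA (0.62, limma adjusted p = 0.0317, 7 arrays) and LHCB4.2 (1.56, adjusted p = 0.0407) passed as higher in the mutant, and with 8 arrays 0 of these markers passed. LHCB4.1, the remaining leaf marker, differed by -0.01 under BA, with overlapping groups. The part of these marker differences in the members' values was not tested.

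Genes that work beside the 2 families were thinly covered, and the calls here are from 7 arrays. With 8 the adjusted p by limma was 0.275 for GR1 and 0.400 for GRX480 in wild type, and 0.346 for AER and 0.211 for DFR between the genotypes under BA. Glutathione reductase recycles oxidised glutathione, and of the list of glutathione synthesis and recycling 2 of 26 names were measured, the reductases GR1 (AT3G24170) and GR (AT3G54660). GR1 was at 1.25 and 1.52 with DMSO and at 0.764 and 0.725 with BA in wild type and fell by 0.89 in log2 units (adjusted p = 0.0372 by limma, 7 arrays). GR differed by -0.79 (adjusted p = 0.0636). In the mutant they differed by -0.14 to 0.08 without passing. GRX480, a glutaredoxin that binds TGA transcription factors and the 1 measured name of 18 on that list, was at 0.696 and 0.728 with DMSO and at 1.24 and 1.501 with BA in wild type. It passed as higher (0.94, limma adjusted p = 0.0377, 7 arrays). In the mutant it was at 3.83 and 2.27 with DMSO and at 0.648 and 0.758 with BA. That change was in the opposite direction but passed in neither fit (-1.70 with 7 arrays, and -2.07 with 8, limma adjusted p = 0.709). The difference in response was -3.01 with 8 arrays, which did not pass (limma adjusted p = 0.172). With 7 arrays it was -2.64, given as a size only because the mutant DMSO group then holds a single array.

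The list of other xenobiotic and oxylipin response genes had 2 of 17 names measured. AER, an alkenal reductase that removes reactive carbonyls, was at 0.902 and 1.098 with DMSO and at 1.69 and 1.91 with BA in wild type, a difference of 0.85 that did not pass (limma adjusted p = 0.0717, 7 arrays). In the BA-treated mutant it was at 0.631 and 0.799 and passed as lower than in wild type (-1.34, adjusted p = 0.00935). ALDH7B4, an aldehyde dehydrogenase, differed by 0.53 with BA in wild type without passing. Of flavonoid and anthocyanin synthesis 2 of 26 names matched a measured symbol. The matched CHI (AT2G43570) is a chitinase by the RefSeq table, not chalcone isomerase, and is not described. DFR, the reductase that leads to anthocyanins, was at 0.906 and 0.772 with DMSO and 0.502 and 1.03 with BA in wild type, and at 0.975 and 5.90 with DMSO and 101 and 7.55 with BA in the mutant. Under BA it was higher in the mutant (5.27 ± 1.07, limma adjusted p = 0.0332, 7 arrays), with mutant BA arrays far apart. The transporter list (ABCC, 30 names) and the UDP-glucose supply list (17 names) had 0 measured, and of glucosinolate synthesis (18 names) the single measured gene was the member GSTU20.

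By substrate, the lists of glucosyltransferases gave the following counts for BA in wild type with 7 arrays. They hold 3 genes that the symbol rule left out, GT72B1, UF3GT and SGT. Of 8 measured genes of phenylpropanoids and lignin 1 rose (UGT84A4) and the median change was 0.54, and of 5 genes of salicylate and defence 1 rose (UGT73B5) with a median of 0.30. The lists for auxin and indoles (3 genes, median 0.04), abscisic acid (3 genes, -0.15), flavonoids and anthocyanins (4 genes, -0.17) and sterols (2 genes, -0.06) held 0 that passed, as did the single genes UGT74B1 for glucosinolates and UGT73C1 for cytokinins and brassinosteroids. Over all probe sets the median was -0.04, and 0.844% passed as higher and 1.42% as lower. Under BA the phenylpropanoid list had 4 genes lower and 2 higher in the mutant, and the salicylate and defence list 2 lower (UGT73B5 and UGT76D1). Of all probe sets, 3.56% passed as lower and 4.12% as higher in that comparison.

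Of the 58 members, 11 have a median more than 0.005 below 1 and so are among the dim probe sets (GSTU15, GSTU21, GSTU23, UGT71B5, UGT71B8, UGT73C2, UGT73C7, UGT76E1, UGT78D3, UGT84B1 and UGT84B2). None of these 11 passed in any of the 5 comparisons in either fit.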

How the data were processed

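Total RNA of 8 samples was labelled with biotin by the standard Affymetrix protocol, per the labels. The value table as deposited by the authors holds linear ratios. For the summarising program, background correction and scaling, the sources used here give nothing. Of 22810 probe sets 64 controls were left out, and 22746 were tested. The annotation gives 1 gene for 13513 probe sets (59.4%) and several for 503. All 58 members were found by gene ID in the RefSeq table of assembly TAIR10.1. That table supplied gene names, overlaps and order only.

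Testing used limma 3.58.1 in R 4.3.3, on log2 of the deposited ratio, without offset, with 1 mean per group and 5 contrasts. The members, the lists, both fits and the rule for named genes were chosen with earlier results of these data known. The rule names the members that passed in either fit (up to 12 per direction), otherwise the 5 with the lowest p, the extremes of BA change in wild type in each subfamily of 3 or more, UGT85A1, UGT73C1 and UGT73C5, and at most 4 from each further list. The fit for BA in wild type was tested on simulated data. Alternatives were left-out arrays, a replicate block, arrayWeights, quantile normalization, median centring, offsets of 1 and 32, dim probe sets left out and only the groups compared. The number of arrays limits the precision.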

Additional observations from a re-analysis of the deposited data

How the results depend on the processing

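All 5 counts of members that passed were 0 with 8 arrays, and the values here are counts of members by limma. For BA in wild type that 0 became 6 with 7 arrays, 5 with arrayWeights, 7 with only the groups compared, and 1 with quantile normalization or an offset of 32, and leaving out 1 array at a time gave 0 to 6. The 7-array 6 became 3 with the replicate block and 0 to 1 without a wild-type array (range over all left-out arrays 0 to 7). For BA in the mutant, 1 member passed with 7 arrays less mutant BA replicate 2, and leaving out arrays gave 0 to 20 from either fit, the 20 without mutant DMSO replicate 2. For the difference in BA response the range was 0 to 21 from either fit, and 2 passed with 7 arrays and an offset of 32. Under DMSO the 0 became 4 with 7 arrays (0 to 17 over left-out arrays), and the 4 became 2 with an offset of 32 or the replicate block, 10 with only the groups compared, and 0 to 17 over left-out arrays. Under BA the 0 became 21 with 7 arrays, 16 with arrayWeights, 14 with only the groups compared, 2 with an offset of 1 or quantile normalization, 1 with an offset of 32 or without dim probe sets, and 0 to 21 over left-out arrays. The 21 became 10 with an offset of 32, 16 (4 higher, 12 lower) with the replicate block, and 6 to 21 over left-out arrays. The replicate block changed no other count of members by more than 1.5 times, and the cause of these changes was not tested. Deviations of same-numbered samples correlated at -0.17 to 0.12 over 6 pairs of groups, so the numbers were not taken as pairs. The settings that combine 7 arrays with another choice, other than a further left-out array, were chosen after seeing the data.

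Single genes turned sign as follows. With 8 in place of 7 arrays, BA in the mutant became 0.19 for GSTF4 and -0.67 for UGT72E2, the difference in response 0.00948 for GSTF4, and the DMSO difference 0.0924 for UGT73C1. Using mutant DMSO replicate 1 and not replicate 2, BA in the mutant became 1.15 for GSTF4, -0.82 for UGT84A3, -0.11 for GSTU28 and -2.17 for UGT72E2, the difference in response 0.97 for GSTF4, and the DMSO difference 1.11 for UGT72E2, 0.44 for GSTU22 and 1.37 for UGT73C1. UGT78D1 in wild type became 0.11 without BA replicate 1 and 0.0409 without DMSO replicate 2. UGT73C1 in the mutant became 0.0216 with the replicate block and 0.0521 without BA replicate 2. Signal over background was not analysed here, since ratios carry none.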
